A study of Mus musculus with 18 samples.

Results

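The nuclear genes of the mitochondrial respiratory chain were followed in mouse liver after 4 interventions that are studied for their effects on aging. The members are the 87 of 12019 genes in the authors' deposited comparison table whose symbol begins with Nduf, Uqcr, Cox4 to Cox8 or Atp5, or is Sdha, Sdhb, Sdhc or Sdhd. They comprise 78 subunits, of which 36 belong to complex I, 4 to complex II, 8 to complex III, 15 to complex IV and 15 to complex V. The other 9 carry a subunit-like name but are assembly factors, paralogs or, in 1 case, a subunit of an unrelated complex. Livers came from C57BL/6J mice, an inbred strain, at the end of 8 weeks of intervention that began at 21 weeks of age. The groups were caloric restriction by 30%, rapamycin dosed at 42 mg/kg/day, metformin dosed at 37.5 mg/kg/day and TM5614 dosed at 20 mg/kg/day, each with 3 labelled libraries, and ad libitum feeding with 6. The compounds were given in the chow. Rapamycin inhibits the kinase mTOR, metformin is a biguanide that lowers blood glucose, and TM5614 is an inhibitor of plasminogen activator inhibitor-1. The livers were perfused with saline, and the libraries were poly(A)-selected.

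The respiratory chain transfers electrons from NADH and succinate to oxygen and pumps protons across the inner mitochondrial membrane. Complex I accepts electrons from NADH and complex II from succinate, complex III passes them from ubiquinol to cytochrome c, and complex IV reduces oxygen. Complex V, the ATP synthase, makes ATP with the proton gradient. Most subunits are nuclear genes translated in the cytosol, while a few core subunits of complexes I, III, IV and V are encoded in mitochondrial DNA and are not analysed here. Hepatocytes are rich in mitochondria, and their chain reoxidizes the NADH of fatty acid oxidation, which rises in fasting. Metformin at high concentration inhibits complex I activity in isolated mitochondria, a property of the enzyme that says nothing about its messenger RNA.

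Of the 87 genes, 5 were called changed by the authors' test in at least 1 comparison. Under caloric restriction 4.76% of the members with an adjusted p were called, against 19.0% of all genes tested. Under TM5614 the shares were 1.22% and 3.96%. No member was called under rapamycin or metformin, where 1.39% and 0.245% of all genes tested were. Ndufs7, a core subunit of complex I that holds the last iron-sulfur cluster before ubiquinone, was lower under TM5614. Atp5b, the catalytic beta subunit of complex V, was higher under caloric restriction. The other 3 calls were under caloric restriction as well and are not subunits: Ndufaf1 and Atp5sl, which take part in building complex I, and Cox7a2l, which is known for joining complexes III and IV into supercomplexes. The strain C57BL/6 is known to carry a short form of Cox7a2l that was reported not to join them. Atp5sl is an older symbol of Dmac2 and, despite its name, is no part of the ATP synthase. The promoters of these 5 genes are shown because they are the members whose messenger RNA passed the test. Each sequence is that of RefSeq on GRCm38.p6, the mm10 assembly, 250 bases before to 50 after the annotated start, 5′ to 3′ on the strand of the gene. Capitals mark letters that match a searched motif.
Ndufs7: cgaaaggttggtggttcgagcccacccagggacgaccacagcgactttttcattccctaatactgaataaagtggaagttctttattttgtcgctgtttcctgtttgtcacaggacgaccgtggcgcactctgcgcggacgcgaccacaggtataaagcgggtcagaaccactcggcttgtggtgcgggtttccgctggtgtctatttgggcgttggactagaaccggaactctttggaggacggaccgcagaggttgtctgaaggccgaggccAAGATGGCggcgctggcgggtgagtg
Atp5b: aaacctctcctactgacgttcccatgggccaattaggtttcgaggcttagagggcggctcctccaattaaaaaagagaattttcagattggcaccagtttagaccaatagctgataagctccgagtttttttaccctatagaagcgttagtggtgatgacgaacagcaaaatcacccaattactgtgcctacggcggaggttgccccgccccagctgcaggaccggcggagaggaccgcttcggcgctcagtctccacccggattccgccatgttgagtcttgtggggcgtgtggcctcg
Atp5sl: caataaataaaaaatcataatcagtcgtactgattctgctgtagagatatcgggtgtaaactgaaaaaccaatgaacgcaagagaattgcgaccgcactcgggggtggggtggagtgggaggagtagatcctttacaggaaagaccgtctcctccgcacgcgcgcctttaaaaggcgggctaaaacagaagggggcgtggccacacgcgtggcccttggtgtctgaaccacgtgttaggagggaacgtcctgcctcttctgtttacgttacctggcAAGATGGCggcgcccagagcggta
Ndufaf1: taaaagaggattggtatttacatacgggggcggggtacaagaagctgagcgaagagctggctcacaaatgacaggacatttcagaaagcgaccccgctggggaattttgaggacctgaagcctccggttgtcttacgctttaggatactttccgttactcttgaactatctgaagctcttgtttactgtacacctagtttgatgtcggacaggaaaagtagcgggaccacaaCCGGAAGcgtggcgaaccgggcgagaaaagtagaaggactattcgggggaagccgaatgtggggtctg
Cox7a2l: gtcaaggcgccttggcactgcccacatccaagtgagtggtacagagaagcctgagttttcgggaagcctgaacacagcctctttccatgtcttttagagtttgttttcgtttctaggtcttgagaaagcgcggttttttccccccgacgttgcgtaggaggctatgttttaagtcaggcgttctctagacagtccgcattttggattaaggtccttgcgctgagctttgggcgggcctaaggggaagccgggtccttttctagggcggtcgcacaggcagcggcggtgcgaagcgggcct

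The windows are chr10:80249199-80249498 on the plus strand for Ndufs7, chr10:128083057-128083356 on the plus strand for Atp5b and chr7:25619164-25619463 on the plus strand for Atp5sl. Those on the minus strand are chr2:119662785-119663084 for Ndufaf1 and chr17:83514284-83514583 for Cox7a2l. The windows of Ndufs7 and Cox7a2l lie wholly inside the longer gene models of GENCODE vM21. Motifs known from promoters of mitochondrial genes were searched on both strands: GCGC and again GCGC with NN between them for NRF1, CCGGAAG for ETS factors such as GABPA, AAGATGGC for YY1 and TCAAGGTCA for ESRRA. The YY1 letters began 24 bases after the start of Ndufs7 and 26 bases after that of Atp5sl, and the ETS letters began 18 bases before the start of Ndufaf1. None of the 4 motifs was in the windows of Atp5b and Cox7a2l, which says only that these letters are not there. Across the 73 members matched to a promoter, 19 held the NRF1 letters (26.0%, against 13.7% of 9516 promoters of genes in the table and 6.43% of all 27025 promoters). The ETS letters were in 16 of the 73 (21.9%, against 18.3% and 9.12%), the YY1 letters in 10 (13.7%, against 4.82% and 2.88%), and the ESRRA letters in 2, Sdhd and Atp5g3 (2.74%, against 0.263% and 0.407%). By complex, the YY1 letters were in 7 of 32 promoters of complex I: Ndufa3, Ndufa9, Ndufb8, Ndufc1, Ndufs4, Ndufs6 and Ndufs7. They were in 2 of 14 of complex V and 1 of 7 of the members that are not subunits. None of the 3 promoters of complex II, 5 of complex III and 12 of complex IV held them. The NRF1 letters were in 9 of 32 promoters of complex I, 2 of 3 of complex II and 1 of 5 of complex III. For complex IV it was 1 of 12, for complex V 5 of 14 and for the other members 1 of 7. No test set the complexes against each other. These matches describe letters in a window and are no measure of binding.

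All values below are the authors' group means of normalized counts, their log2 fold changes over ad libitum feeding and their adjusted p-values. No value per library could be placed in a group, so no spread between mice can be given beside a mean. Only the authors' adjusted p takes that spread into account, and the spread cannot be read from it. The 4 comparisons share their control libraries. The summed group means lay between 7783345 and 8368017 normalized counts over the 5 groups, and the depth of each library is unknown. The 6 hepatocyte markers checked, Alb among them, were all present and summed to 1033414 under caloric restriction, 718464 under rapamycin, 865450.0 under metformin, 812463 under TM5614 and 795683 under ad libitum feeding. Alb alone was at 858112 under caloric restriction and 606485 under ad libitum feeding, so the sum mostly follows this gene. Under caloric restriction Alb and Ass1 were called higher and Ttr lower in the authors' deposited table. Fewer cells of a type and less RNA per cell cannot be told apart in whole liver. Markers of other cells moved with some groups as well. Under caloric restriction the sum of 8 Kupffer cell and macrophage markers was 854 against 1829 under ad libitum feeding, with 4 (C1qa, C1qb, C1qc and Cd5l) called lower in the authors' deposited table. The same sum was 1397 under rapamycin, 1257 under metformin and 1327 under TM5614, with none of the markers called. Marco, which is part of the sum, was at 261 under ad libitum feeding and 27.3 to 44.5 under the interventions, and had no adjusted p. Under rapamycin the sinusoidal markers Stab1 and Stab2 were called lower in the authors' deposited table, and the sum of 6 such markers was 760.5 against 1180.4. Of 4 pancreatic acinar markers 3 are in the table, and their sum was 2.49 to 4.27 in the 4 intervention groups, with 2 of the 3 listed at 0, against 134 under ad libitum feeding. Cela2a of this list was called lower under caloric restriction and TM5614 (authors' deposited table, adjusted p = 0.00305 and 0.00687). Rn45s, the ribosomal RNA precursor, took 0.472% of the summed means under caloric restriction, 0.555% under rapamycin, 4.40% under metformin, 0.132% under TM5614 and 0.227% under ad libitum feeding. Lars2 took 0.261% under metformin and 0.0117% under ad libitum feeding. Both were called higher under metformin, with log2 fold changes of 4.37 and 4.58 (authors' deposited table, adjusted p = 0.00561 and 0.00295). Under TM5614 Rn45s had a log2 fold change of -0.78, with an adjusted p listed as 0. The part of these differences in the results below was not tested.

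Levels between genes were compared per kilobase of annotated transcript. Over the 5 groups the median subunit stood at 971 to 1191 normalized counts per kilobase. The subunits of complex I were the lowest as a set, with medians of 630.1 under TM5614 to 784 under metformin, against 1229 to 1454 for complex II, 1339 to 1648 for complex III, 1588 to 1935 for complex IV and 1599 to 1854 for complex V. Within complex V the highest was Atp5b, at 6148 under caloric restriction, 5132 under rapamycin, 5081 under metformin, 5007 under TM5614 and 5086 under ad libitum feeding, and the lowest was Atp5k, a small subunit of the membrane part, at 919 under caloric restriction, 1062 under rapamycin, 1198 under metformin, 943 under TM5614 and 983 under ad libitum feeding. Within complex IV the highest was Cox4i1, the regulatory subunit that is among the first nuclear-encoded ones to join, at 5320.2 under caloric restriction, 4493 under rapamycin, 4932 under metformin, 3845 under TM5614 and 4770.2 under ad libitum feeding. Uqcrq led complex III, with 4329 to 5679 per kilobase over the groups, and Uqcrc2, one of its core proteins, was lowest at 926 to 1007. In complex I the ends were Ndufb9, at 1733 to 2335, and Ndufc1, at 192 to 234, both accessory subunits of the membrane arm. Sdhc, a membrane anchor of complex II, stood at 399.7 to 457 per kilobase, below the other subunits of that complex in each group. The gene at either end of each complex was thus the same in all groups, except for the highest of complex II, which was Sdhb under caloric restriction and Sdha, the flavoprotein, in the other groups, and for the lowest of complex IV, which was one or another of the tissue isoforms near 0. For Ndufab1, Ndufb2, Uqcrq, Atp5d, Atp5g1 and Atp5g2 another principal transcript is over 1.5 times longer, which makes their level per kilobase uncertain.

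Caloric restriction was the comparison with the most calls among all genes, yet a single subunit of the chain, Atp5b, passed the test. Of the 87 members 3 were higher, 1 was lower, 80 did not pass the test and 3 had no adjusted p. Of all genes tested in that comparison 19.0% were called, 9.74% higher and 9.24% lower, against 4.76% of the 84 members with an adjusted p. Atp5b was at 11779.9 under caloric restriction, 9834 under rapamycin, 9735 under metformin, 9594 under TM5614 and 9746 under ad libitum feeding (authors' group means). It was highest under caloric restriction, while the 4 other groups lay between 9594 and 9834. Its log2 fold change under caloric restriction was 0.27, and its adjusted p was 0.00299 by the authors' deposited table. The other F1 subunits of complex V, the part that turns ADP into ATP, had values above 0 without passing: Atp5c1 0.19 (authors' deposited table, adjusted p = 0.213), Atp5d 0.19, Atp5e 0.12 and Atp5a1, the alpha subunit, 0.077. Atp5b hosts Mir677 and Snord59a on its own strand, and reads of these cannot be told from its own.

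Of the 5 members that are assembly factors of complex I, 1 was called lower and 1 higher under caloric restriction. Of all genes tested there, 9.24% were called lower and 9.74% higher. None of the 36 subunits of complex I passed, and no test set the 2 kinds of gene against each other. Ndufaf1, a factor of the complex that builds the membrane arm, was at 120.5 under caloric restriction, 183 under rapamycin, 198 under metformin, 198 under TM5614 and 198 under ad libitum feeding. Its mean was lowest under caloric restriction, with the other groups between 183 and 198, and its log2 fold change was -0.71 (authors' deposited table, adjusted p = 0.000283). Atp5sl, an assembly factor for the same arm, was at 309 under caloric restriction, 194 under rapamycin, 203 under metformin, 221 under TM5614 and 204 under ad libitum feeding. It was higher under caloric restriction, by 0.60 on the log2 scale (authors' deposited table, adjusted p = 0.0042), and lay between 194 and 221 elsewhere. Cox7a2l was at 949 under caloric restriction, 861 under rapamycin, 827 under metformin, 711 under TM5614 and 797 under ad libitum feeding. Its log2 fold change under caloric restriction was 0.25 (authors' deposited table, adjusted p = 0.0299), and its lowest mean was under TM5614, where it did not pass. The remaining assembly factors did not pass: Ndufaf2 stood at a log2 fold change of -0.36, Ndufaf3 at -0.49 and Ndufaf4 at 0.35, and the authors' deposited table gives them adjusted p of 0.182, 0.125 and 0.129. Ndufb9 had the highest value of the subunits, 0.33 (authors' deposited table, adjusted p = 0.0994).

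**Figure D1:**
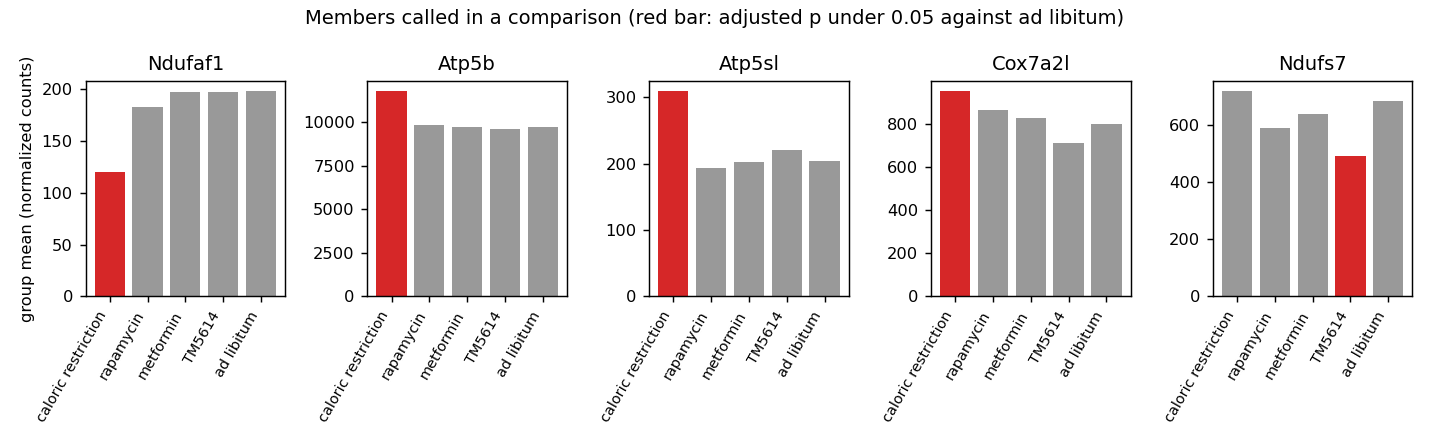
Authors' group means in normalized counts (vertical axes from 0, each gene on its own scale) of the 5 members called in a comparison, with caloric restriction, rapamycin, metformin, TM5614 and ad libitum feeding from left to right. Red bars mark an adjusted p under 0.05 against ad libitum feeding: caloric restriction has the highest mean in Atp5b, Atp5sl and Cox7a2l and the lowest in Ndufaf1, and TM5614 the lowest in Ndufs7. No error bars are drawn because no value per library could be placed in a group.

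None of the members that are subunits of complexes I to IV passed the test under caloric restriction. Ndufs8, a ferredoxin-like iron-sulfur subunit of complex I, had a log2 fold change of -0.12, and Ndufs7 one of 0.072. Ndufv1, which binds NADH, was at 1695 under caloric restriction against 1518 under ad libitum feeding, a log2 fold change of 0.16. Ndufs1, Ndufs3 and Ndufv2, further electron carriers or partners of the same arm, stood at -0.014, 0.11 and 0.085. In complex II, Sdhb, its iron-sulfur subunit, had 1881 under caloric restriction against 1628 under ad libitum feeding, a log2 fold change of 0.21, while Sdha, Sdhc and Sdhd lay between -0.044 and -0.013. In complex III the Rieske iron-sulfur protein Uqcrfs1 had a log2 fold change of -0.0098, and the core proteins Uqcrc1 and Uqcrc2 had 0.034 and 0.010. The catalytic core of complex IV itself is encoded in mitochondrial DNA and is not analysed here, and Cox4i1, Cox5a and Cox5b, which surround it, stood at 0.16, 0.17 and -0.011. These are the values of the authors' deposited table.

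Under rapamycin no member passed the test, of 82 with an adjusted p, where 1.39% of all genes were called, 0.714% higher and 0.675% lower. None passed at an adjusted p under 0.1 either, and the deposited table gives no unadjusted p. The log2 fold changes of the 82 members that averaged 10 or more ran from -0.22 to 0.25. At the top were 3 accessory subunits of complex I. Ndufa7 had 494 under rapamycin against 414 under ad libitum feeding, Ndufa3 404 against 342, and Ndufb4 406 against 347. At the bottom were Ndufs7 with 587 against 681, Atp5g1, a gene for the rotor subunit c of complex V, with 1096 against 1269, and Ndufs3 with 765 against 853. The smallest adjusted p in the authors' deposited table was 0.582, for Ndufs7. The core subunits of complex I had a median log2 fold change of -0.038, with 5 of 7 below 0, and its accessory subunits a median of 0.059, with 23 of 29 above 0. No test of the difference between these sets was made.

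Under metformin no member passed either, of 80 with an adjusted p, and 0.245% of all genes were called, 0.163% higher and 0.0816% lower. None passed at an adjusted p under 0.1. Most values lay above the control on the deposited scale, although the members' share of the summed means was 0.980 of that in the control: 67 of 82 members were above 0 (81.7%, against 52.0% of the 11201 genes that average 10 or more), with a median log2 fold change of 0.094 against 0.0093 for all genes. In complex IV all 11 subunits with such a mean were above 0, between 0.048 for Cox4i1 and 0.22 for Cox6b1. In complex II 3 of 4 were below 0. The highest member was Ndufb2, an accessory subunit of complex I, with 335 under metformin against 258 under ad libitum feeding, a log2 fold change of 0.38 (authors' deposited table, adjusted p = 0.712). Ndufa5, likewise accessory, had 370.3 against 303, Atp5k 444 against 365, and Uqcr11, a small subunit of complex III, 1033 against 859.6. The lowest were Atp5g2, with 643 against 699, Ndufs7, with 637 against 681, and Atp5s, a factor associated with complex V, with 28.6 against 30.1. The core subunits of complex I lay between -0.097 and 0.11, and Atp5b and Atp5a1 at -0.0016 and -0.016.

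Under TM5614 most genes of the chain lay below the control. Of 82 members with a mean of at least 10, 73 had a log2 fold change below 0 (89.0%, against 51.0% of all genes), and the median was -0.13 against -0.0079 for all genes. A single member, Ndufs7, passed the test, lower, of 82 with an adjusted p, and 1.95% of all genes were called lower (2.01% higher, 3.96% in either direction). Ndufs7 was at 717 under caloric restriction, 587 under rapamycin, 637 under metformin, 489 under TM5614 and 681 under ad libitum feeding. It was lowest under TM5614 and second lowest under rapamycin, and its log2 fold change under TM5614 was -0.48 (authors' deposited table, adjusted p = 0.0201). Next in adjusted p was Sdhd, a membrane anchor of complex II, with 1474 under TM5614 against 1687 under ad libitum feeding, a log2 fold change of -0.19 (authors' deposited table, adjusted p = 0.0945). Ndufa11, an accessory subunit of complex I, had 232 against 308, a log2 fold change of -0.41 (authors' deposited table, adjusted p = 0.144). Ndufaf3 and Atp5s, with means of 56.1 and 27.5 over the groups, stood at -0.45 and -0.45 without passing.

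Other genes of the chain under TM5614 were mostly a little below the control. In complex I, Ndufv1 had 1369 under TM5614 against 1518 under ad libitum feeding, and Ndufs1, the subunit above 0 among the 7, 1207 against 1159. In complex III, Uqcrfs1 had 1706 against 1968 and Uqcrc1 1773 against 2041, log2 fold changes of -0.21 and -0.20. In complex IV all 11 subunits with a mean of at least 10 were below 0, from -0.31 for Cox4i1 to -0.067 for Cox6b1. In complex V, Atp5b and Atp5a1 were at -0.023 and -0.099, and Atp5g1 was lowest at -0.33. Above the control were 9 members, led by Ndufaf4, an assembly factor of complex I, with 272 against 208 (by the authors' deposited table a log2 fold change of 0.39, adjusted p = 0.167). Ndufs5, an accessory subunit, had 294 against 247. Cox4nb, which is an older symbol of Emc8 and belongs to the endoplasmic reticulum membrane complex, had 237 against 212. No gene named in this paragraph passed the test under TM5614.

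**Figure D2:**
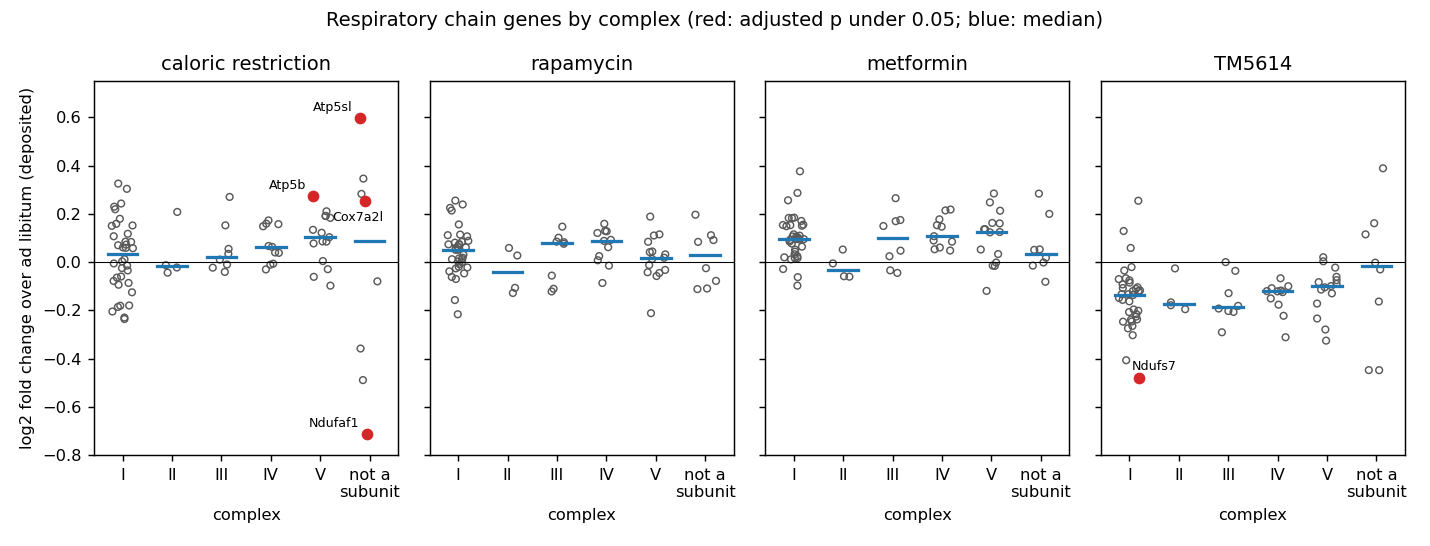
Deposited log2 fold changes over ad libitum feeding (vertical axis) of the 82 members with a mean of at least 10, by complex, in 4 panels for caloric restriction, rapamycin, metformin and TM5614; each circle is a gene, red circles have an adjusted p under 0.05 and blue lines are medians. The medians of all 5 complexes lie below 0 under TM5614, and 4 of 5 lie above 0 under metformin on this scale, with complex II at -0.032.

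By complex, the medians lay as follows, with no test between complexes. Under TM5614 the median log2 fold change was -0.13 for complex I, -0.17 for complex II, -0.19 for complex III, -0.12 for complex IV and -0.099 for complex V. Under metformin the medians were 0.096, -0.032, 0.098, 0.11 and 0.12 in the same order. Under rapamycin they were 0.051, -0.040, 0.079, 0.088 and 0.018. Under caloric restriction they were 0.035, -0.018, 0.022, 0.063 and 0.10, and the highest set was the F1 part of complex V with 0.19 and all 5 genes above 0. The spread among members was narrower than that of all genes: the quartiles of the members were -0.033 and 0.16 under caloric restriction, against -0.26 and 0.27 for all genes. Log2 fold changes beyond 0.5 in size were found for 2 members under caloric restriction, Ndufaf1 and Atp5sl, and for none under rapamycin, metformin or TM5614, against 2835, 1236, 909 and 1643 of the 11201 genes. The members were not compared with other genes of the same level, so the narrower spread is a description.

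**Figure D3:**
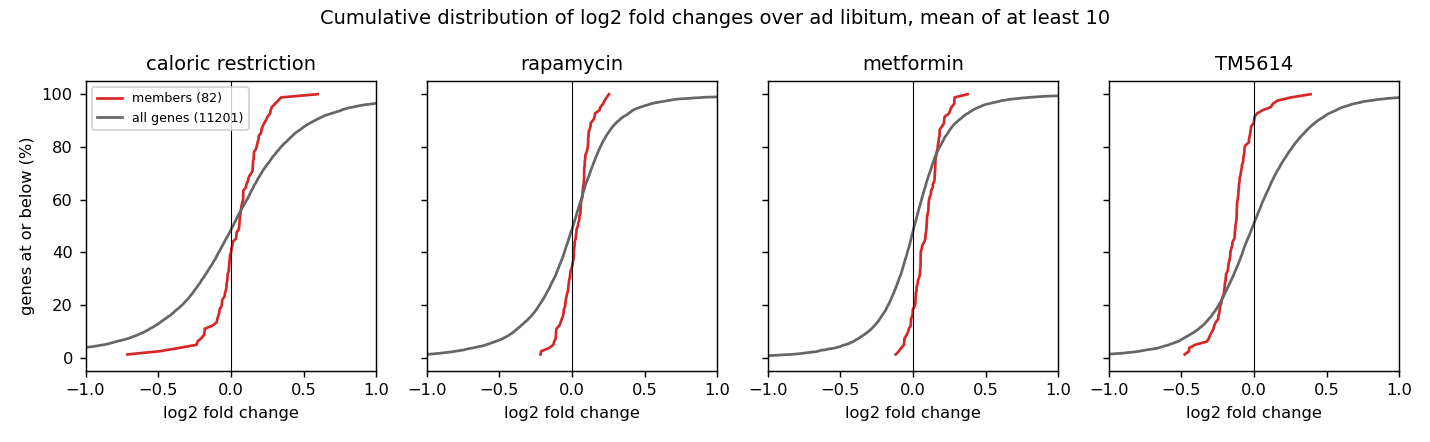
Share of genes in percent (vertical axis) at or below a log2 fold change over ad libitum feeding (horizontal axis, shown between -1 and 1), for the 82 members (red) and the 11201 genes averaging 10 or more (grey), by intervention. The member curve is steeper in all panels and lies to the left of 0 for 89.0% of members under TM5614 and to the right for 81.7% under metformin on this scale.

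The share of the summed group means that came from the 87 members depended on the scale. It was 1.26% under caloric restriction, 1.26% under rapamycin, 1.24% under metformin, 1.17% under TM5614 and 1.27% under ad libitum feeding. The ratio to ad libitum feeding was 0.921 under TM5614 and 0.919 to 0.932 on the 3 other scales tried. Under metformin the ratio was 0.980 with all genes and 1.03 to 1.04 on the 3 other scales (without Rn45s and Lars2, without the 20 genes highest in any group, and per kilobase), so its direction flips with the scale. Under caloric restriction and rapamycin it was 0.996 and 0.995, and it was 1.03 in both on sums per kilobase. By complex, complex V held 0.478% under caloric restriction, 0.454% under rapamycin, 0.449% under metformin, 0.436% under TM5614 and 0.462% under ad libitum feeding. Complex I held 0.298%, 0.308%, 0.305%, 0.278% and 0.306% in the same order of groups. The share of complex I was below that of the control under caloric restriction, while its summed mean was above it, at 24929 against 23878 normalized counts, and its median log2 fold change was 0.035, so its direction depends on the scale. No spread over mice can be put on these shares.

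Under metformin and TM5614 the log2 fold changes differed with transcript length. The members are short, with a median annotated transcript of 809 bases against 2789.5 bases for all genes averaging 10 or more. Among all other genes of up to 800 bases the median log2 fold change was 0.10 under metformin and -0.14 under TM5614. The 39 members of that length had medians of 0.15 and -0.15. Among other genes of 800 to 1500 bases the medians were 0.040 and -0.14, against 0.089 and -0.13 for the 26 members of that length. Among other genes over 1500 bases the medians were -0.00081 and 0.026, against 0.017 and -0.092 for the 17 members of that length. Under caloric restriction and rapamycin the members of up to 800 bases had medians of 0.063 and 0.051. Other genes of up to 800 bases lay on the other side of 0 there, at -0.029 and -0.018. The 78 cytosolic ribosomal protein genes, which are short too, had medians of 0.13 under caloric restriction, -0.050 under rapamycin, 0.13 under metformin and -0.13 under TM5614, and none was called. The 76 mitochondrial ribosomal protein genes had medians of -0.19, -0.016, 0.088 and -0.10 in that order, with 10 called lower under caloric restriction, where 9.24% of all genes tested were called lower. Under metformin and TM5614 the chain thus lay on the side of 0 on which short transcripts in general lay. The part of length in the result was not tested.

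**Figure D4:**
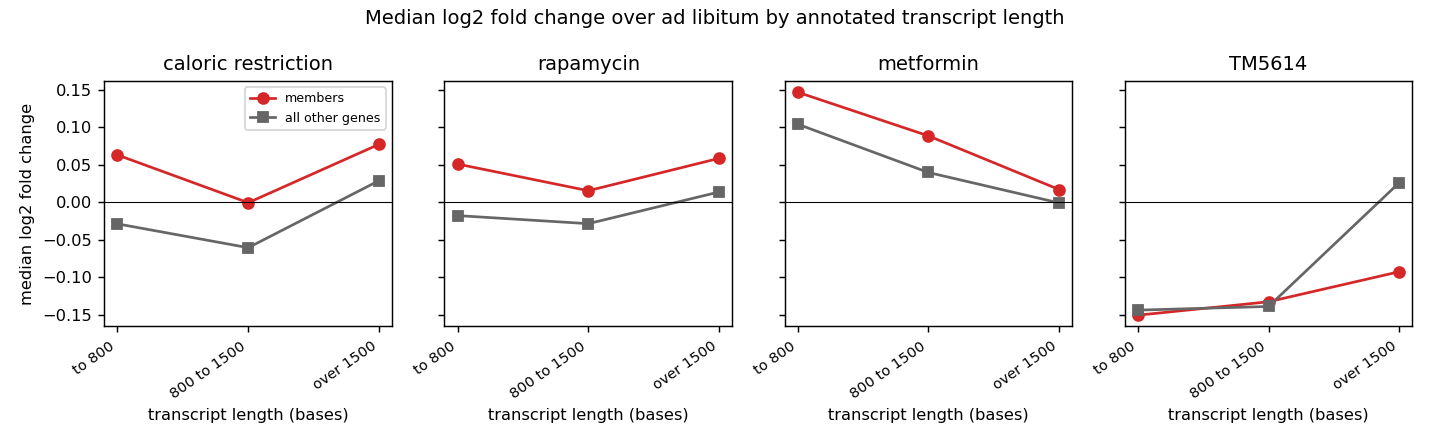
Median log2 fold change over ad libitum feeding (vertical axis) by annotated transcript length in bases (horizontal axis), for members (red circles; 39, 26 and 17 genes) and all other genes with a mean of at least 10 (grey squares; 410, 1510 and 9074 genes), by intervention. Under TM5614 members and other genes up to 800 bases lie together near -0.15 and -0.14, and above 1500 bases the members lie at -0.092 while other genes lie at 0.026.

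Several subunits are encoded by more than one gene, and the widely expressed form prevailed in all groups. Subunit c, which forms the rotor ring of complex V, has the same mature protein from Atp5g1, Atp5g2 and Atp5g3. Per kilobase, Atp5g3 gave 55.6% of the family under caloric restriction, 54.9% under rapamycin, 55.7% under metformin, 56.2% under TM5614 and 52.5% under ad libitum feeding. Atp5g1 gave 23.9% to 27.2% and Atp5g2 18.1% to 21.2% over the groups. These shares rest on lengths of 596 bases for Atp5g1 and 441 for Atp5g2. Other principal transcripts of these 2 genes have up to 4715 and 731 bases, so the shares are uncertain. Cox6a1, Cox6b1 and Cox8a, the widely expressed forms, gave at least 99.3% of their families per kilobase in each group. The forms known from heart, skeletal muscle or testis were near 0: Cox6a2 at 1.97 to 4.47 normalized counts, Cox8b at 0.978 to 6.38, and Cox6b2 at 1.30 under caloric restriction, 1.55 under TM5614 and 1.38 under ad libitum feeding, and listed at 0 under rapamycin and metformin. Cox7a1, the muscle form of that subunit, was at 9.01 to 10.5, against 659 to 828 for Cox7a2. Ndufa4l2, a paralog of Ndufa4 known from hypoxia, was at 6.66 to 11.7, against 1590.2 to 1929 for Ndufa4, which is counted with complex IV. These 5 genes have a mean below 10, and no direction is read from them. Markers of muscle were nonetheless present, with Acta1 and Ckm summing with Tnnt2 to 359 to 568 in the intervention groups against 370.3 under ad libitum feeding.

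Genes around the chain were described from lists chosen with earlier results of these data known. Under caloric restriction the tricarboxylic acid cycle and pyruvate dehydrogenase, which feed the chain, had 5 genes higher and 4 lower of 17 in the authors' deposited table, where 9.74% of all genes tested were higher and 9.24% lower. Pdha1, the catalytic alpha subunit of pyruvate dehydrogenase, was at 1505 under caloric restriction against 1187 under ad libitum feeding and rose by 0.34, while Pdhb and Dlat of the same enzyme complex fell by 0.57 and 0.58 on the log2 scale. Cs, citrate synthase, was at 889 against 1147 (authors' deposited table, adjusted p = 0.00248). Of 25 assembly factors of complex IV, 6 were lower and none higher, beside the same 9.24% lower among all genes: 2310016M24Rik (Cox14), Cox18, Cox19, Taco1, Tmem177 and Ccdc56 (Coa3), with log2 fold changes of -0.86 to -0.40. Of 11 further assembly factors of complex I, 1 was lower, Acad9, which works with Ndufaf1, at 225 against 337 (authors' deposited table, adjusted p = 0.000116). Ttc19 of complex III was higher, and no assembly factor of complex II (of 4) or V (of 7) passed.

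Among 20 electron carriers and ubiquinone enzymes 3 were higher and 3 lower under caloric restriction, beside 9.74% and 9.24% of all genes tested. Adck3 (Coq8a), a regulator of ubiquinone synthesis, was at 1178 under caloric restriction, 3213 under rapamycin, 2725 under metformin, 1532 under TM5614 and 3708 under ad libitum feeding. Its log2 fold changes were -1.65 under caloric restriction and -1.28 under TM5614 (authors' deposited table, adjusted p = 5.54e-07 and 0.00227). Coq10b, a ubiquinone-binding protein, was at 579 under caloric restriction against 266 under ad libitum feeding (authors' deposited table, adjusted p = 0.00381). Cyc1, a heme-bearing subunit of complex III, is not reached by the symbol rule. Its mean was 1690.4 under caloric restriction, 1577 under rapamycin, 1647 under metformin, 1423 under TM5614 and 1635 under ad libitum feeding. Cyc1 did not pass in any comparison. Cycs, cytochrome c, did not pass either. Of 12 nuclear regulators, Ppara, the receptor that drives fatty acid oxidation, was at 2846 under caloric restriction and 1981 under TM5614, against 1144 under ad libitum feeding, and was called higher in both. Esrra, a nuclear receptor known to act on chain genes, was at 331 under caloric restriction against 173 (authors' deposited table, adjusted p = 1.90e-06). Sirt3 was higher and Gabpb1, the partner of Gabpa, lower. Ppargc1a, the coactivator PGC-1alpha, was at 403 under caloric restriction, 119.9 under rapamycin, 74.6 under metformin, 93.5 under TM5614 and 214 under ad libitum feeding, and passed nowhere. Nrf1, Gabpa and Tfam passed nowhere. Of 15 genes for mitochondrial DNA expression, Tfb2m was higher and Ssbp1 and Mterfd3 (Mterf2) lower under caloric restriction.

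The compounds gave few calls around the chain. Under rapamycin Pdha1 (log2 fold change 0.34), Suclg2, a subunit of succinyl-CoA ligase (0.22), and Foxred1, an assembly factor of complex I (0.49), were called higher by the authors' deposited table, where 0.714% of all genes tested were called higher. Under metformin no gene of the 9 lists passed, and 0.245% of all genes tested were called. Under TM5614, where 1.95% of all genes tested were called lower and 2.01% higher, 3 of 25 assembly factors of complex IV were lower: Sco2, a copper carrier, at 285 against 509 under ad libitum feeding (authors' deposited table, adjusted p = 0.000649), 2310016M24Rik and Ccdc56. Both 2310016M24Rik and Ccdc56 were also lower under caloric restriction, in a comparison with the same control libraries. Pprc1, a relative of PGC-1alpha, was higher under TM5614, at 195 against 119. The subunits of complex IV themselves did not pass in either comparison.

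**Figure D5:**
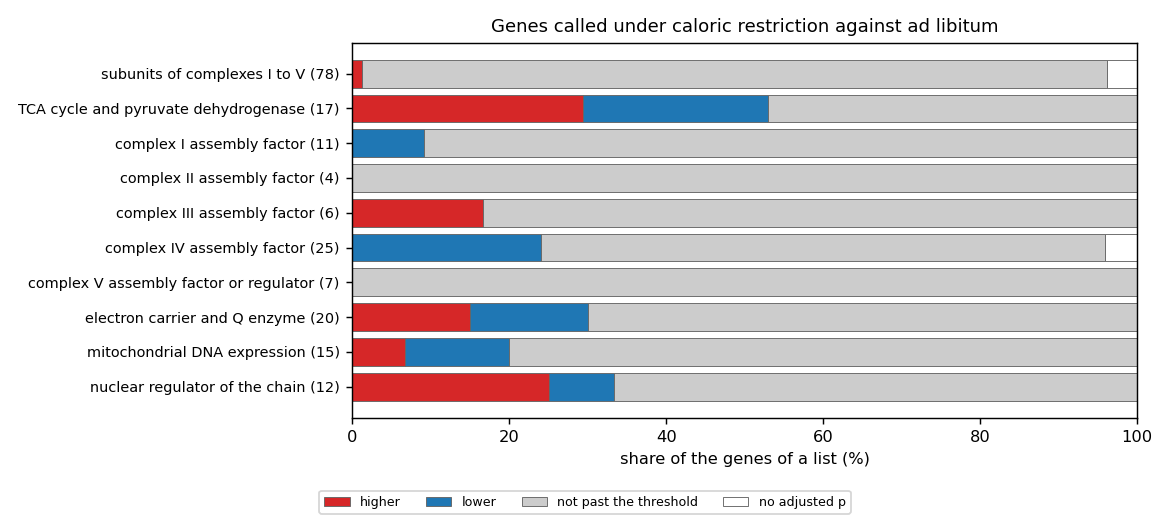
Genes of the subunit set and of 9 further lists by the authors' test of caloric restriction against ad libitum feeding, as a share of each list in percent (horizontal axis; the number of genes is beside each name). Red is higher, blue lower, grey not past an adjusted p of 0.05 and white without an adjusted p: 1 of 78 subunits was called and 9 of 17 genes of the tricarboxylic acid cycle and pyruvate dehydrogenase, where 19.0% of all genes tested were called, and no test set the lists against each other.

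Counting limits apply to several members. GENCODE vM21 lists 12 pseudogenes named after members, among them copies of Atp5c1, Atp5k, Atp5l, Cox6c, Ndufa11, Ndufab1, Ndufb4, Ndufs6 and Uqcrh, and the treatment of reads that fit a copy as well is not given in the sources used here. Atp5a1 overlaps Haus1, Atp5j overlaps Gabpa and Cox4i1 overlaps Cox4nb (Emc8) on the opposite strand, and without a known strand setting reads in these overlaps cannot be told apart. Other protein-coding gene models lie on the strand of the member itself, among them Gm20388 over Cox4i1, Gm49356 over Ndufb9, Gm42420 over Ndufb2 and Yjefn3 over Ndufa13. A strand setting alone would not separate reads there.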

How the data were processed

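Liver RNA of 18 labelled libraries was sequenced after poly(A) selection, per the labels' protocols. Reads were aligned with HISAT2 2.0.5 to mm10, per the submitters' processing notes; which tool counted reads per gene, with which strand setting and annotation, is not given in the sources used here. DESeq2 was used by the authors, as the name of their deposited table states. Over 12019 genes it holds a column of values per group, whose header gives only the group name. These values are read here as a normalized signal, the authors' mean per group of counts scaled by size factors. The same deposited table holds, per the file headers, the authors' log2 fold change and their adjusted p-value for each of 4 comparisons. Another deposited table has 18 columns whose names match no label, and they were not used. A log2 fold change column for a compound that no label names was not used either. The planned fits on values per library were therefore not made, and the adjusted p-values of the authors are the test. They take the spread between libraries into account but are no measure of it. The labels do not say whether any of these libraries share an origin. The smallest control mean above 0 (0.315) is close to the smallest means of the groups with 3 libraries (0.299 to 0.322), so how many of the 6 control libraries stand behind the control mean is not known. The design text gives another total of mice than the groups it lists.

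The members, gene lists and markers were chosen with earlier results of these data known. A gene was called at an adjusted p under 0.05. Medians cover genes whose 5 group means average 10 or more. Named were all called members, the 3 highest and 3 lowest log2 fold changes per comparison, a list of core and central subunits, isoforms, the ends of each complex per kilobase, members below a mean of 10 and up to 4 called genes per further list; a few more stand beside them and were chosen after their values were seen. A few genes that the rule names are not reported here. Lengths are those of the principal transcripts of GENCODE vM21; all 87 members matched, 85 by their own symbol. Marker lists for cholangiocytes, T, NK and B cells, neutrophils, erythroid and stellate cells and brown fat had no more than 1 gene called in a comparison: Alas2 and Lrat, both lower under caloric restriction. Python 3.11.15, pandas 2.3.3 and numpy 2.4.6 were used, and the counting was checked on simulated tables. Alternatives were other thresholds, filters, scales and member sets.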

Additional observations from a re-analysis of the deposited data

How the results depend on the processing

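No paired analysis was possible because the columns of values per library carry no label that ties them to a group or a replicate number; limma on those values and leaving out each replicate were not run for the same reason. Of the values under another setting, 30 stayed close to those reported and 18 moved, and none of the medians changed sign. Close meant within a set factor for counts and equal at 2 decimals for other values. Some counts could not move: with no member called under rapamycin or metformin, a stricter threshold or a smaller set of members had to give none as well. Under rapamycin and metformin no member passed at any threshold tried, and under caloric restriction 3 passed under 0.01 and 5 under 0.1. With subunits alone, 1 member was called under caloric restriction in place of 4. Under TM5614 the count was 0 at an adjusted p under 0.01 and 2 under 0.1, in place of 1. Centred on all genes, the median log2 fold change of members was 0.044 under caloric restriction, 0.035 under rapamycin, 0.085 under metformin and -0.12 under TM5614. It was 0.096 under metformin with subunits alone, and -0.12 under TM5614 both with no filter and with a mean of at least 100. The ratio of the members' share was 1.03 under caloric restriction, rapamycin and metformin when sums were divided by length. Without Rn45s and Lars2 it was 0.998 under rapamycin and 1.03 under metformin. Without the 20 genes highest in any group it was 0.981 under rapamycin, 1.04 under metformin and 0.932 under TM5614. The side of 1 on which the share lies under metformin, caloric restriction and rapamycin thus depends on the scale. With no values per library and no depth, no interval can be put on a mean, and a change of a subunit within the spread between mice would not be seen.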
